A study of Mus musculus with 16 samples.

Results

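The genes of the renin-angiotensin-aldosterone system were examined in RNA-seq count data from the kidney and liver of aged mice. The 9 members, *Ren1*, *Agt*, *Ace*, *Agtr1a*, *Agtr1b*, *Mas1*, *Hsd11b2*, *Nr3c2* and *Sgk1*, were chosen by name from the 24984 genes in the count tables. All mice were wild-type female C57BL/6 mice with a labelled age of 24 months. In the shFos group AAV8, an adeno-associated virus vector, carried a short hairpin RNA against *Fos*, a subunit of the AP-1 transcription factor, and in the NT group the same type of vector carried a non-targeting hairpin, both given by intravenous injection. According to the study's methods, the labelled age is that at injection, and the organs were collected some months later. There were 16 libraries, 4 for each organ and treatment. The labels do not state whether the kidney and liver libraries with the same number came from the same mouse or whether each replicate was a separate mouse, so p-values measure only the spread between these samples. No young or uninjected mice were included in these libraries, and both groups carried a viral hairpin.

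The renin-angiotensin-aldosterone system controls blood pressure and sodium balance. Renin, which is secreted by juxtaglomerular cells of the kidney, cleaves angiotensinogen from the liver, and angiotensin-converting enzyme then forms angiotensin II. Angiotensin II acts through AT1 receptors in vessels, kidney and adrenal cortex, where it drives the secretion of aldosterone. In the distal nephron aldosterone binds the mineralocorticoid receptor, *Sgk1* is induced, and sodium reabsorption through the epithelial sodium channel increases.

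The libraries held 14194543 to 15534665 counted reads in kidney and 16652150 to 18300277 in liver. A count of 0 in a library allows up to 3 counts, which corresponds to 0.164 to 0.211 counts per 1e6 counted reads (CPM), and this limit covers counting error only. Within each organ, CPM were normalized with the trimmed mean of M values (TMM). *Fos*, the targeted gene, had 30 to 102 counts per kidney library and a mean of 5.37 ± 1.02 CPM in NT and 3.23 ± 0.929 CPM in shFos kidneys (SD, n = 4, exact permutation p = 0.0286). Its log2 fold change in kidney was −0.73 (SE 0.25, edgeR adjusted p = 0.0955, DESeq2 adjusted p = 0.0421). The groups did not overlap for *Fos*, nor for 17.2% of all kidney genes. In liver *Fos* had 17 to 71 counts and 2.51 ± 1.08 CPM in NT against 1.82 ± 0.637 in shFos (exact permutation p = 0.343).

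Some libraries stood apart in ways that bear on this system. The kidney library of shFos replicate 2 held 111 counts of *Cyp11b1*, 176 of *Cyp21a1* and 108 of *Hsd3b1*, which encode enzymes of adrenal steroid synthesis. The other 7 kidney libraries held 0 counts of *Cyp11b1*, 0 or 1 of *Cyp21a1* and 0 to 26 of *Hsd3b1*. *Cyp11a1*, another gene of steroid synthesis, did not single out that library, since it had 178 counts in kidney NT replicate 3, 73 in shFos replicate 2 and 2 to 7 in the other kidneys. The kidney library of shFos replicate 2 had 116.5 CPM of the brown fat gene *Ucp1*, against 0 to 19.2 CPM in the other kidneys, and 76.3 CPM of the adipocyte gene *Adipoq*, against 9.91 to 33.3. *Cyp11b2*, the aldosterone synthase of the adrenal cortex, had 2 counts in 1 NT liver and 0 in the other 15 libraries. In NT replicate 4, *Fkbp5*, a glucocorticoid-induced gene, reached 218 CPM in kidney and 146 CPM in liver, while the other NT libraries had 25.5 to 32.2 CPM in kidney and 43.3 to 53.2 in liver. *Alb* was 27345 CPM in the liver of NT replicate 4 and 104128 to 170014 CPM in the other NT livers. Where leaving out shFos replicate 2 in kidney or NT replicate 4 in its organ moved a value of a member by over 1.5 times, the value without it is given beside it.

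*Ren1*, the renin gene (ENSMUSG00000070645.5, chromosome 1, 133350510 to 133360325, + strand, mm10), had 0 counts in every one of the 16 libraries. Its close paralog *Ren2* was also listed and was also at 0 in all 16. The remaining 8 members had at least 1 count. The reads were assigned by HTSeq, which by default sets aside those that fall on more than 1 gene, and these ambiguous reads made up 1.84% to 2.64% of each library. In GENCODE M21, which can differ from the authors' annotation, *Ren1* shared exon bases with 0 other genes. That does not show whether *Ren1* and *Ren2* overlapped in the authors' annotation. The part of read assignment in the 0 counts of renin was not tested, so they cannot be read as an absence of renin mRNA. The 6 markers of juxtaglomerular and vascular smooth muscle cells were all detected in kidney, and their summed level was 173 to 238 CPM in NT and 206 to 307 CPM in shFos kidneys. Of these markers, *Akr1b7* and *Gja5* averaged only 1.31 and 6.53 CPM in NT kidney. The sum came mostly from the smooth muscle genes, so it does not measure juxtaglomerular cells.

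The members were first compared between organs, using a single normalization of all 16 libraries and an edgeR quasi-likelihood fit of 4 groups. Of the 15421 genes tested, 64.7% differed between NT kidney and NT liver at an adjusted p under 0.05, and 5 of the 6 members tested did. *Agt*, which encodes angiotensinogen, the precursor of all angiotensin peptides (ENSMUSG00000031980.9, chromosome 8, 124556534 to 124569706, − strand), had 1201 ± 203 CPM in NT liver and 113 ± 17.1 CPM in NT kidney (SD, n = 4). The log2 difference, kidney over liver, was −3.41 (SE 0.22, edgeR adjusted p = 1.42e-09). *Agtr1a*, the main AT1 receptor gene of rodents (ENSMUSG00000049115.15, chromosome 13, 30336441 to 30382867, + strand), was also higher in liver, at 123 ± 21.7 against 35.5 ± 8.77 CPM, a log2 difference of −1.80 (SE 0.18, edgeR adjusted p = 3.10e-07). The kidney and liver libraries of NT mice did not overlap for either gene.

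The opposite order was seen for *Ace*, which encodes the enzyme that forms angiotensin II (ENSMUSG00000020681.14, chromosome 11, 105967945 to 105989964, + strand). *Ace* had 174 ± 48.0 CPM in NT kidney and 5.01 ± 5.005 CPM in NT liver, a log2 difference of 5.11 (SE 0.57, edgeR adjusted p = 1.11e-06). Liver NT replicate 4, at 12.4 CPM, raised the NT liver mean of *Ace*. Without that library the log2 difference was 6.10 (edgeR adjusted p = 4.58e-08). *Hsd11b2*, which inactivates glucocorticoids in aldosterone target cells (ENSMUSG00000031891.6, chromosome 8, 105518755 to 105523988, + strand), had 11255 counts over the 4 NT kidneys and 2 counts over the 4 NT livers. Scaled for depth, that is a ratio of 3280 with a 95% exact counting interval of 908 to 27087. *Nr3c2*, the mineralocorticoid receptor (ENSMUSG00000031618.13, chromosome 8, 76899442 to 77245012, + strand), was closer in level between the organs, with 17.97 ± 0.770 CPM in kidney and 13.5 ± 2.04 CPM in liver (log2 difference 0.42, SE 0.11, edgeR adjusted p = 0.00431). *Ace* shares exon bases with *Gm11651* and *Nr3c2* with *Gm10649*, so reads on the shared bases may have been set aside as ambiguous.

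*Sgk1*, a kinase that keeps the epithelial sodium channel at the cell surface (ENSMUSG00000019970.15, chromosome 10, 21882184 to 21999903, + strand), did not pass the test between organs in NT mice. It had 111 ± 30.6 CPM in NT kidney and 79.6 ± 26.004 CPM in NT liver, a log2 difference of 0.49 (SE 0.28, edgeR adjusted p = 0.138). Without liver NT replicate 1, the highest of the NT livers, the difference was 0.71 and the edgeR adjusted p was 0.0400, and without kidney NT replicate 4 they were 0.31 and 0.355. In shFos mice *Sgk1* had 211 ± 55.5 CPM in kidney and 57.3 ± 18.9 CPM in liver, a log2 difference of 1.88 (SE 0.29, edgeR adjusted p = 2.79e-05), and the groups did not overlap.

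The other receptor genes were close to the detection limit in both organs. *Mas1*, the receptor for angiotensin-(1-7) (ENSMUSG00000068037.11, chromosome 17, 12841079 to 12868143, − strand), had 22 counts over the NT kidneys and 6 over the NT livers, a depth-scaled ratio of 2.14 with a 95% exact counting interval of 0.840 to 6.44. *Agtr1b*, the minor AT1 receptor gene (ENSMUSG00000054988.9, chromosome 3, 20314473 to 20367177, − strand), had 5 counts over the NT kidneys, 12 over the shFos kidneys and 0 in every liver. The lower limit of the 95% exact counting interval of the depth-scaled ratio, kidney over liver, was 1.67 in shFos and 0.534 in NT, so a difference between organs was not detectable for *Agtr1b* in NT mice.

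Levels can be compared between genes only per length of transcript. The values in this paragraph were normalized within each organ, so they rank genes inside an organ and do not compare the organs. In kidney, CPM per kb of exons averaged 90.6 for *Hsd11b2*, 76.3 for *Agt*, 56.9 for *Ace*, 46.6 for *Sgk1* and 21.99 for *Agtr1a* over 8 libraries. Each of these overlapped its neighbor in the order. *Nr3c2*, at 4.09 CPM per kb, lay below all 5 without overlap, and *Mas1*, at 0.160, and *Agtr1b*, at 0.0677, followed. In liver, *Agt* averaged 511 CPM per kb and was separated from *Agtr1a* at 31.2, which was separated from *Sgk1* at 9.90, and that from *Nr3c2* at 1.34. *Ace*, at 0.524 CPM per kb, overlapped *Nr3c2* in liver only through NT replicate 4, at 1.66. The other livers had 0.147 to 0.536 CPM per kb of *Ace*, below the lowest *Nr3c2* value of 1.16. *Mas1* averaged 0.0330 and *Hsd11b2* 0.0226 CPM per kb in liver, and their libraries overlapped.

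**Figure D1:**
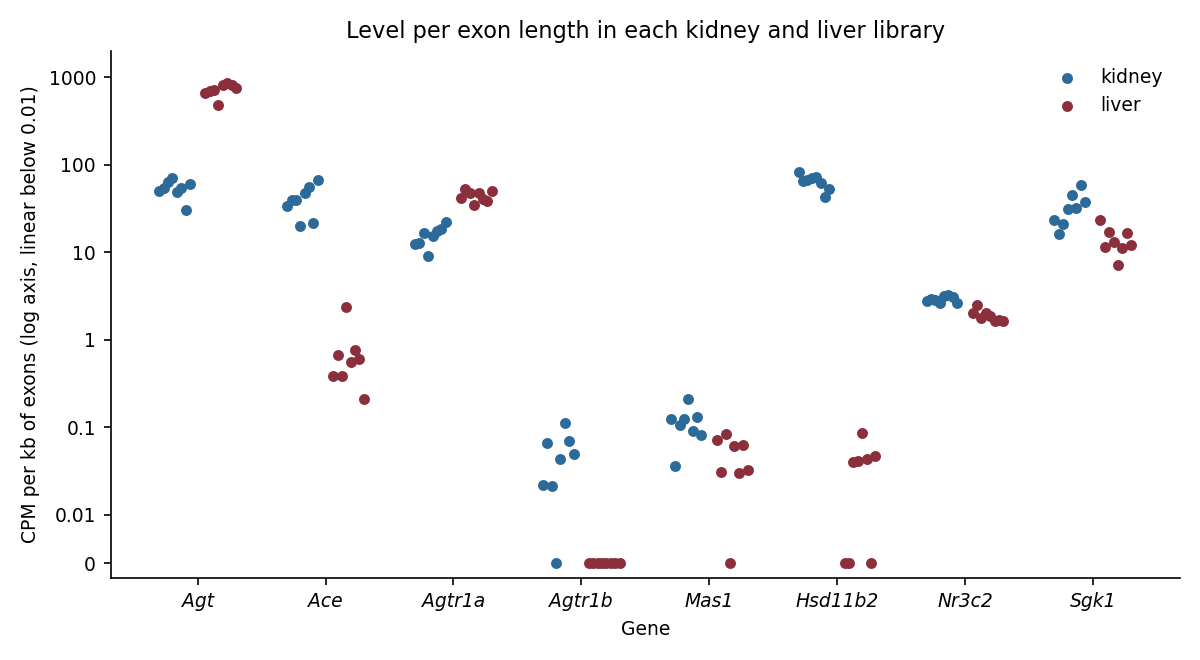
CPM per kb of exons for the 8 detected members in each of the 8 kidney and 8 liver libraries, with all 16 libraries normalized together, on a log axis that is linear below 0.01. Points run from NT to shFos within each organ. *Agt* and *Agtr1a* lie higher in liver, *Ace* and *Hsd11b2* higher in kidney, and *Agtr1b* is at 0 in all livers.

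The sequences upstream of the start sites are shown for *Agt* and *Sgk1*, the members whose NT and shFos groups did not overlap in liver and kidney, respectively, in the comparisons that follow. RefSeq promoters (GRCm38.p6, 250 bases before to 50 bases after a start site) were found for 7 of the 9 members, with 13 start sites in all, of which 6 belonged to *Sgk1*. The 250 bases before the start are printed 5′ to 3′ on the strand of the gene. Capitals mark TATAAA for *Agt* and for the *Sgk1* sequence printed first, which is the most downstream *Sgk1* start. In the *Sgk1* sequence printed second they mark CACGTG, the E-box bound by clock factors. The other *Sgk1* start with TATAAA is not printed.
Agt, chr8:124569707-124569956, − strand: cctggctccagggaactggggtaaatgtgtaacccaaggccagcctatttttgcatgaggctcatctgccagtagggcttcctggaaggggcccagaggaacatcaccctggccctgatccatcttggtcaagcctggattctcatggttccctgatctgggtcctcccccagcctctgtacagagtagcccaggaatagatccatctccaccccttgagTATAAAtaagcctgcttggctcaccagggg
Sgk1, chr10:21994416-21994665, + strand: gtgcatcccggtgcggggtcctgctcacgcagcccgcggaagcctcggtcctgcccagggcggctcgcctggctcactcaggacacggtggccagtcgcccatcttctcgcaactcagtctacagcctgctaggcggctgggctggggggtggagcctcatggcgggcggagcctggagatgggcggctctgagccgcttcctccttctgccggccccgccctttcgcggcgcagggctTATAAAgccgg
Sgk1, chr10:21993640-21993889, + strand: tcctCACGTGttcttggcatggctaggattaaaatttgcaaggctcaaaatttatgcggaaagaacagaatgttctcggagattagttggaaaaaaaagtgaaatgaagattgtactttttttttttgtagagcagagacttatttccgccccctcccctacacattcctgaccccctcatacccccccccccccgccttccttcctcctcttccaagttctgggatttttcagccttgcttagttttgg
Over the full windows and both strands, the AP-1 motif TGANTCA was found in 0 of the 13 member promoters and in 7.81% of all 32851 promoters of the same length. The CRE motif TGACGTCA was found in 0 of 13 and in 1.79% of all. CACGTG was found in 1 of 13, the *Sgk1* start above, where it begins 246 bases before the start site, and in 7.15% of all. TATAAA was found in 6 of 13, in *Ren1*, *Agt*, *Ace*, *Agtr1b* and 2 starts of *Sgk1*, and in 13.6% of all. None of these motifs overlapped another in the printed sequences. A match is a description of letters in this window only.

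In kidney, shFos was then compared with NT. Of 14892 genes, 0 (0%) passed an adjusted p under 0.05 in edgeR, 4747 (31.9%) had an unadjusted p under 0.05, and DESeq2 called 2732 (18.3%). Of the 6 members past the filter on low counts, 0 passed the adjusted edgeR test, 2 had an unadjusted p under 0.05 and 1 was called by DESeq2. The libraries of the 2 groups did not overlap for 17.2% of all genes and for 1 of the 6 members. The median log2 fold change of the members was 0.32, and that of all genes 0.00. In bulk tissue, fewer cells of a type and less RNA per cell cannot be told apart.

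*Sgk1* showed the clearest difference in kidney. Its level was 160.2, 112, 145 and 209 CPM in NT replicates 1 to 4 and 303, 219.8, 413 and 265 CPM in shFos replicates 1 to 4. All 4 shFos kidneys were above all 4 NT kidneys, though the lowest shFos library and the highest NT library were close. The means were 157 ± 40.4 and 300.4 ± 82.7 CPM (SD, n = 4, exact permutation p = 0.0286, the smallest that 70 assignments allow). The log2 fold change was 0.94 (SE 0.23) with an edgeR unadjusted p of 0.00278 and an adjusted p of 0.0660. DESeq2 gave an adjusted p of 0.00367. Without shFos replicate 1, where edgeR called 27.5% of all genes, the adjusted p was 0.0412. Without shFos replicate 2, the library with adrenal and fat transcripts, the log2 fold change was 1.06 (edgeR adjusted p = 0.168), and without NT replicate 4 it was 1.11 (edgeR adjusted p = 0.0884). With both left out it was 1.23 (edgeR unadjusted p = 0.000372, adjusted p = 0.189).

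Other genes that glucocorticoids and aldosterone can induce had estimates that depended on NT replicate 4, and whether they changed together with *Sgk1* was not tested. *Tsc22d3*, which encodes GILZ, had 49.0 ± 16.5 CPM in NT and 71.8 ± 20.96 in shFos kidney, a log2 fold change of 0.55 (edgeR adjusted p = 0.176) that was 0.81 without NT replicate 4 (edgeR adjusted p = 0.0887) and 0.33 without shFos replicate 3. *Per1*, a clock gene that aldosterone also induces, had 87.1 ± 53.9 and 63.7 ± 14.2 CPM, and *Fkbp5* had 75.9 ± 94.8 and 43.5 ± 5.90 CPM. The means of *Per1* and *Fkbp5* rested on NT replicate 4. Without it their log2 fold changes turned from −0.45 to 0.08 and from −0.80 to 0.61. The edgeR adjusted p without it was 0.802 for *Per1* and 0.0884 for *Fkbp5*. In the same fit *Sgk1* was at 1.11, but *Scnn1a*, listed among the aldosterone targets below, was at −0.42.

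*Agtr1a* was the other member with an unadjusted p under 0.05 in kidney. It had 49.3, 50.7, 65.9 and 34.7 CPM in NT and 59.1, 67.4, 74.0 and 89.1 CPM in shFos kidneys. Only NT replicate 3 lay within the range of the shFos group. The means were 50.1 ± 12.7 and 72.4 ± 12.7 CPM, a log2 fold change of 0.53 (SE 0.19, edgeR unadjusted p = 0.0227, adjusted p = 0.105, exact permutation p = 0.0571). *Ace* had 255, 295, 293 and 145 CPM in NT and 349, 406, 162.5 and 500.6 CPM in shFos kidneys. The shFos kidneys spread on both sides of most NT kidneys, and *Ace* had a log2 fold change of 0.52 (SE 0.34, edgeR adjusted p = 0.316). It was 0.34 without NT replicate 4, 0.31 without shFos replicate 4 and 0.27 without NT replicate 4 and shFos replicate 2.

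*Agt* and *Hsd11b2* had lower means in shFos kidneys. *Agt* had 136, 148, 169.9 and 185 CPM in NT and 129, 142, 83.6 and 161 CPM in shFos kidneys, and the groups overlapped apart from shFos replicates 1 and 3. Its log2 fold change was −0.31 (SE 0.19, edgeR adjusted p = 0.297), and −0.15 without shFos replicate 3. *Hsd11b2* had 217, 172, 172 and 177 CPM in NT and 184, 159.5, 113 and 137 CPM in shFos kidneys. Of the shFos kidneys, 3 lay below all NT kidneys and replicate 1 lay above 3 of them. The log2 fold change of *Hsd11b2* was −0.31 (SE 0.15, edgeR adjusted p = 0.192). Without shFos replicate 1 it was −0.47 (edgeR adjusted p = 0.0409), without shFos replicate 3 −0.20, and after correction for GC content it was −0.13 (edgeR adjusted p = 0.537). *Nr3c2* varied least, with 25.4 ± 1.49 CPM in NT and 27.5 ± 2.24 in shFos, a log2 fold change of 0.12 (SE 0.09, edgeR adjusted p = 0.404) that was 0.067 without shFos replicate 1 and 0.055 without NT replicate 4 and shFos replicate 2.

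*Mas1* and *Agtr1b* did not pass the filter on low counts in kidney. *Mas1* had 7, 2, 6 and 7 counts in NT and 12, 5, 7 and 4 counts in shFos kidneys, and the groups overlapped (exact permutation p = 0.486). *Agtr1b* had 1, 3, 1 and 0 counts in NT and 2, 5, 3 and 2 counts in shFos kidneys (exact permutation p = 0.0857). The highest count of *Agtr1b* was in shFos replicate 2, the library with adrenal transcripts, and the part of adrenal tissue in it was not tested. A difference between treatments was not detectable at this depth for either gene.

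**Figure D2:**
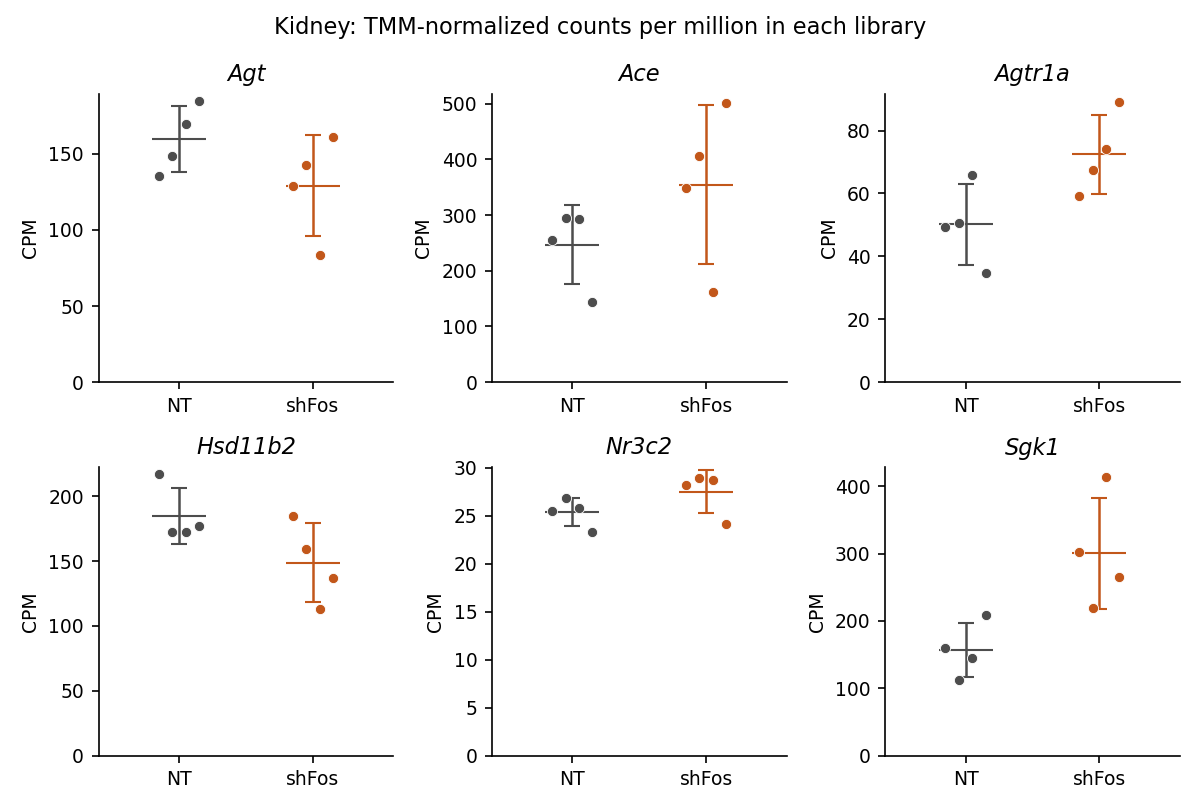
TMM-normalized CPM of 6 members in each kidney library, for NT (gray) and shFos (orange). Points are replicates 1 to 4 from left to right, and the horizontal line and bar are the mean and SD. *Sgk1* is the gene whose 4 shFos libraries all lie above the 4 NT libraries.

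In liver, 0 of 13144 genes (0%) passed the adjusted edgeR test, 886 (6.74%) had an unadjusted p under 0.05, and DESeq2 called 38. Of the 5 members tested in liver, 0 passed the adjusted test and 0 had an unadjusted p under 0.05. *Agt* had 898, 920, 959 and 637 CPM in NT and 1069.9, 1146, 1109 and 985 CPM in shFos livers. All 4 shFos livers were above all 4 NT livers, a pattern that 367 of the 13144 liver genes had. Counting both directions, the groups did not overlap for 4.31% of all liver genes. For *Agt*, NT replicate 4, the library with low *Alb*, was the lowest. The means were 853 ± 146 and 1078 ± 69.0 CPM (SD, n = 4, exact permutation p = 0.0286), a log2 fold change of 0.34 (SE 0.18, edgeR adjusted p = 0.735). DESeq2 gave an adjusted p of 0.581. Without NT replicate 4 the log2 fold change of *Agt* was 0.21 (edgeR adjusted p = 0.811).

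*Sgk1* in liver had 81.8, 40.0, 59.8 and 44.9 CPM in NT and 24.4, 38.7, 57.7 and 40.9 CPM in shFos. The groups overlapped, with NT replicate 1 highest and shFos replicate 1 lowest, and the log2 fold change was −0.49 (SE 0.29, edgeR adjusted p = 0.742). Without NT replicate 1 it was −0.27, and without shFos replicate 1 −0.31. *Nr3c2* had 9.56 ± 1.43 and 7.84 ± 0.517 CPM, a log2 fold change of −0.28 (SE 0.14, edgeR adjusted p = 0.734). *Agtr1a* had 87.6 ± 15.5 and 86.0 ± 10.8 CPM, a log2 fold change of −0.03 (SE 0.15, edgeR adjusted p = 0.977), and −0.14 without NT replicate 4. *Ace* had 1.45, 2.48, 1.46 and 8.79 CPM in NT and 2.08, 2.83, 2.29 and 0.778 CPM in shFos livers. A single library, NT replicate 4, set the NT mean of *Ace*, and its log2 fold change of −0.83 (SE 0.64, edgeR adjusted p = 0.775) turned to 0.14 without that library. *Hsd11b2* had 0 to 2 counts per liver, *Mas1* 0 to 3 and *Agtr1b* 0.

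**Figure D3:**
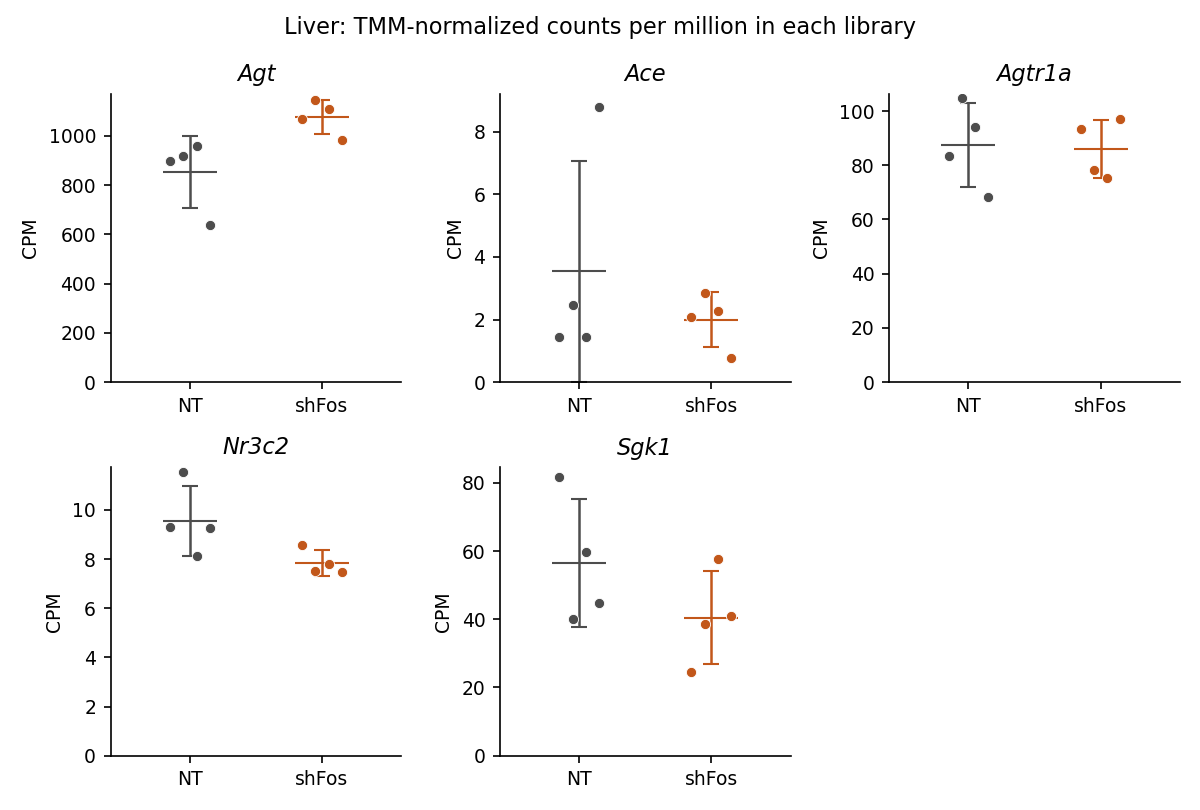
TMM-normalized CPM of the 5 members tested in liver, for NT (gray) and shFos (orange), with replicates 1 to 4 from left to right and the mean and SD. All 4 shFos livers lie above the NT livers for *Agt*, and *Ace* in NT replicate 4 stands at 8.79 CPM.

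Whether the effect of shFos differed between kidney and liver was tested as an interaction in the fit of all 16 libraries. Of all genes 0 (0%) passed an adjusted p under 0.05 in edgeR, 2482 (16.1%) had an unadjusted p under 0.05 and DESeq2 called 341. Of the 6 members, 0 passed the adjusted edgeR test, and *Sgk1*, *Nr3c2*, *Agt* and *Agtr1a* had an unadjusted p under 0.05. The difference of log2 fold changes, kidney minus liver, was 1.40 for *Sgk1* (SE 0.39, edgeR unadjusted p = 0.00280, adjusted p = 0.186), with a DESeq2 adjusted p of 0.0325. It was −0.66 for *Agt* (SE 0.28, edgeR adjusted p = 0.269), 0.39 for *Nr3c2* (SE 0.16, edgeR adjusted p = 0.261), 0.54 for *Agtr1a* (SE 0.25, edgeR adjusted p = 0.305) and 1.36 for *Ace* (SE 0.74, edgeR adjusted p = 0.376). The value of *Ace* rested on liver NT replicate 4, without which it was 0.36 (edgeR adjusted p = 0.793). *Hsd11b2*, with at most 2 counts in any liver, gave −1.23 (SE 0.99), and −0.71 without liver shFos replicate 1.

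**Figure D4:**
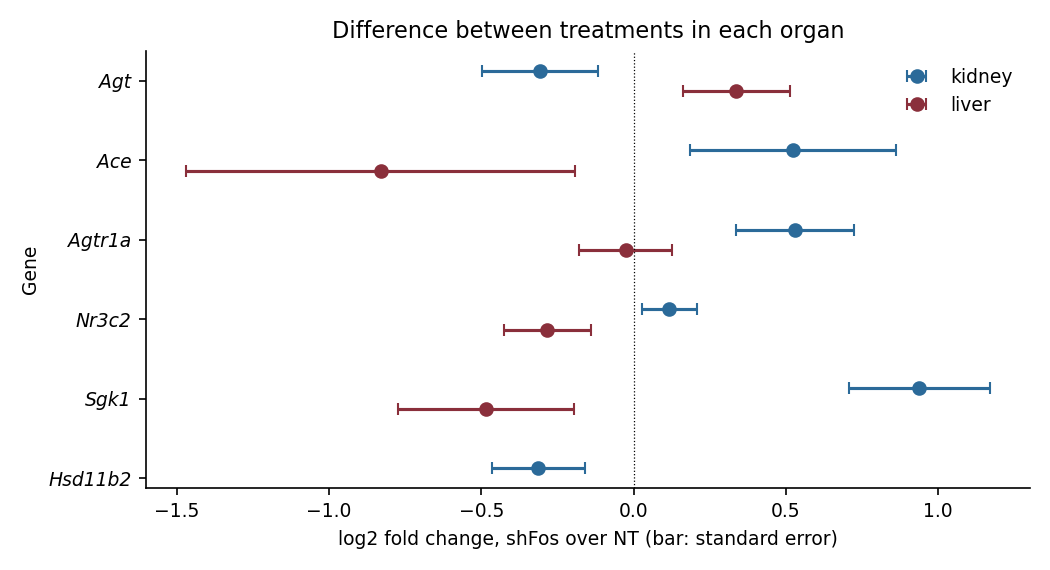
log2 fold change of shFos over NT for each member tested, in kidney (blue) and liver (red), with the standard error derived from the edgeR test as the bar. *Sgk1*, *Agt*, *Ace*, *Nr3c2* and *Agtr1a* have estimates of opposite sign in the organs. That of *Agtr1a* in liver is −0.03, and ranges from −0.14 to 0.058 with 1 library left out. *Ace* in liver is 0.14, the sign of kidney, without liver NT replicate 4. *Hsd11b2* was tested in kidney only.

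The wider pathway was described with 64 genes in 5 lists, all of them in the tables, of which 53 were tested in kidney. In kidney 13 had an unadjusted edgeR p under 0.05 and were higher in shFos and 4 were lower, while 0 passed the adjusted test. The 17 genes were close in share to the 31.9% of all kidney genes at that p, of which 17.1% were higher and 14.8% lower. DESeq2 called 13 of the 53, against 18.3% of all genes. The genes of angiotensin processing had a median log2 fold change of 0.38, with 6 of 10 tested higher in shFos at an unadjusted p under 0.05 and none lower. The leading genes were *Enpep*, the aminopeptidase A that converts angiotensin II to angiotensin III, and *Lnpep*, the angiotensin IV binding aminopeptidase. *Enpep* had 71.5 ± 12.9 and 154 ± 46.2 CPM, a log2 fold change of 1.11 (SE 0.23). *Lnpep* had 6.74 ± 1.64 and 18.6 ± 8.81 CPM, a log2 fold change of 1.46 (SE 0.38). Each had an edgeR adjusted p of 0.0660, the smallest of any kidney gene. The groups did not overlap for *Enpep*, nor for 17.2% of all kidney genes. For *Lnpep* they overlapped (exact permutation p = 0.0857). The 4 genes tested among receptors and partners had a median of 0.31 with 0 under that p. Among 14 genes that control renin release 3 were higher at that p, with a median of 0.18. *Ep300*, a coactivator used by the renin promoter, had 73.8 ± 4.69 and 96.9 ± 11.4 CPM, a log2 fold change of 0.39 (SE 0.10, edgeR adjusted p = 0.0660).

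The lists of steroid handling and distal sodium transport were not tested against each other. *Nr3c1*, the glucocorticoid receptor, had 87.0 ± 20.0 and 134 ± 28.7 CPM (log2 fold change 0.62, SE 0.20, edgeR adjusted p = 0.0850), and *Hsd11b1*, which regenerates active glucocorticoid, had 72.7 ± 21.2 and 105 ± 7.23 CPM (log2 fold change 0.53, SE 0.19, edgeR adjusted p = 0.106). *H6pd*, which supplies its cofactor, had 261 ± 68.5 and 268 ± 42.2 CPM. Of the 4 genes of this list that were tested, 2 were higher at an unadjusted p under 0.05. Of 21 genes of aldosterone targets and distal sodium transport, 2 were higher and 4 lower at that p, and the median log2 fold change was −0.02. *Wnk4*, a kinase that controls the thiazide-sensitive cotransporter, had 407 ± 71.1 and 233 ± 72.1 CPM, a log2 fold change of −0.81 (SE 0.21, edgeR adjusted p = 0.0660). The sodium channel subunits *Scnn1b* and *Scnn1a* had log2 fold changes of −0.52 (SE 0.13, edgeR adjusted p = 0.0660) and −0.74 (SE 0.26, edgeR adjusted p = 0.0957), and *Scnn1a* was at −0.42 without NT replicate 4. *Sgk1* thus had an estimate opposite in sign to that of the channel subunits.

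**Figure D5:**
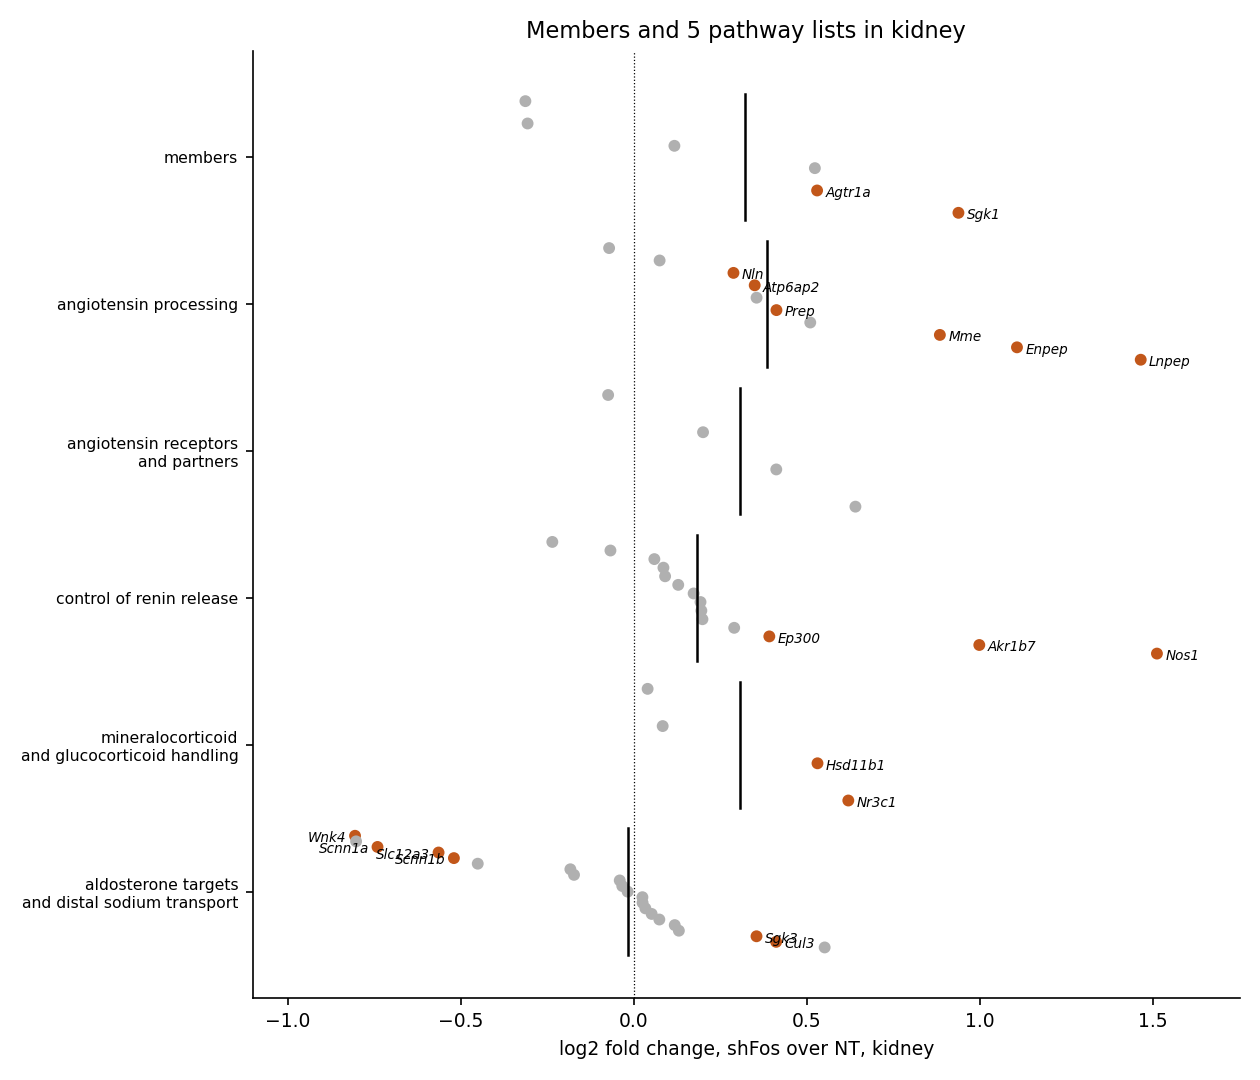
log2 fold change of shFos over NT in kidney for the 6 members tested and for the genes tested in each of 5 pathway lists. Orange points have an unadjusted edgeR p under 0.05 and are named, gray points do not, and vertical bars are medians. The median of angiotensin processing is 0.38 and that of aldosterone targets −0.02.

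In liver 41 of the 64 pathway genes were tested, 4 were higher and 1 lower at an unadjusted edgeR p under 0.05, and 0 passed the adjusted test. Of all liver genes 3.58% were higher and 3.16% lower at that p. *Tsc22d3* had 83.6 ± 12.1 CPM in NT and 140.4 ± 25.7 in shFos liver, a log2 fold change of 0.75 (SE 0.17, edgeR adjusted p = 0.712, DESeq2 adjusted p = 0.0320). *Scnn1a* had a log2 fold change of 0.49 (SE 0.14) and *Npr1*, the receptor of atrial natriuretic peptide, 0.33 (SE 0.12), each with an edgeR adjusted p of 0.714. *H6pd* had 564 ± 149.5 and 352 ± 46.8 CPM, a log2 fold change of −0.68 (SE 0.21, edgeR adjusted p = 0.714). *Fkbp5* had a log2 fold change of −0.69 that rested on NT replicate 4, and it was −0.09 without that library. *Agtr2*, the AT2 receptor, had 0 counts in liver and 1 to 6 per kidney.

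Markers of cell types had 0 genes with an adjusted edgeR p under 0.05 in kidney. Their counts at an unadjusted p under 0.05 are given beside the 17.1% of all kidney genes that were higher and the 14.8% that were lower at that p, and their part in the values of the members was not tested. Proximal tubule markers, where *Agt* and *Ace* are also expressed, were higher in shFos for 6 of 6 genes, 3 at an unadjusted edgeR p under 0.05, and summed to 5066 to 15776 CPM in NT and 10715 to 36134 CPM in shFos. Much of the spread of these sums came from 1 gene, *Kap* (edgeR adjusted p = 0.536). It ranged from 1557 to 9773 CPM in NT and from 1454 to 26157 CPM in shFos kidneys. The lowest NT sum was that of NT replicate 4, where all 6 genes were at their lowest NT value. *Slc34a1*, for example, had 1688 CPM there, against a median of 3276 CPM in NT kidneys. How far the higher estimates of the 6 genes in shFos rest on that library was not tested. Podocyte markers were higher for 4 of 4 genes at that p, with sums of 281 to 414 CPM in NT and 357 to 742 CPM in shFos. Principal cell markers of the collecting duct, the site of *Hsd11b2* and of aldosterone action, were lower for 6 of 6 genes, 0 at that p, with sums of 495 to 761 CPM in NT and 272 to 728 CPM in shFos. Distal convoluted tubule markers were lower for 4 of 4 genes, 2 at that p, with sums of 2035 to 2907 and 1542 to 2328 CPM. Thick ascending limb and adipocyte markers had 0 genes at that p, endothelium and juxtaglomerular or smooth muscle markers had 3 each, all higher, and leukocyte markers 0. The hepatocyte list had 2 of 6 lower at that p in kidney. Of the 7 adrenal markers 2 passed the filter on low counts, with 0 at that p, and their sum was 49.5 CPM in shFos replicate 2 and 4.79 to 20.8 CPM in the other kidneys. Among 14 clock genes, 3 were higher and 8 lower at that p in kidney. The groups did not overlap for 7 of the 14, nor for 17.2% of all kidney genes. The time of day of collection was not given in the sources used here.

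The genes with the most similar pattern to each member were taken over the 8 libraries of the organ where that member was higher, as a description of libraries that share depth and treatment. *Ddah2* was most like *Agt* in liver, with a Pearson r of 0.995 on log2 CPM, and 0.991 after the group means were removed. *Aadat* was most like *Ace* in kidney (r = 0.984), followed by *Reep5* (0.978). *Sfn* and *Cars* were most like *Hsd11b2* in kidney (0.961 each), *Bcl6* and *Sema3c* most like *Nr3c2* (0.946 and 0.941), and *Zzz3* and *Ranbp6* most like *Sgk1* (0.960 and 0.957). In liver *Tnfaip8l1* and *Taldo1* were most like *Agtr1a* (0.951 and 0.9503), and *Tiam1* was second to *Ddah2* for *Agt* (0.977).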

How the data were processed

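Gene-level RNA-seq counts of 16 libraries, 4 for each organ and treatment, were analysed. The authors trimmed reads with Trimmomatic 0.39, aligned them to mm10 with HISAT2 2.2.1 and counted them per gene with HTSeq 0.12.4 without regard to strand, and deposited raw counts for 24984 genes. Reads on no gene made up 13.4% to 26.7% of each library, and the 5 summary lines that hold such reads were left out. GENCODE M21 had 98.2% of the symbols and supplied identifiers, positions, exon lengths and GC content, but can differ from the authors' annotation. Promoters came from RefSeq GRCm38.p6. No table of protein sequences was used here. Counting without strand leaves genes that overlap on opposite strands uncertain.

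Under R 4.3.3, each organ was fitted alone with edgeR 4.0.16 (filterByExpr, TMM, robust quasi-likelihood test, Benjamini-Hochberg adjustment over all genes tested, threshold 0.05). Organ contrasts and the interaction came from one fit of all 16 libraries. Each SE of a log2 fold change was its absolute value divided by the square root of the F statistic of the edgeR test. Single genes were also compared by exact two-sided permutation of mean CPM over 70 assignments. Correlations used log2(CPM + 0.1). The fits were checked on simulated counts with planted changes. The alternatives were DESeq2 1.42.0, upper-quartile and median-of-ratios normalization, other filters (none, or at least 10 counts on average), one fit of all libraries, the newer quasi-likelihood dispersion, a lowess GC correction with span 0.3, a block for the replicate number, and the removal of each library. Leaving out NT replicate 4 and shFos replicate 2 of the kidney together was added after seeing the data.

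The members, the 5 pathway lists (angiotensin processing, receptors and partners, control of renin release, steroid handling, aldosterone targets and distal sodium transport) and the 12 lists of cell type and clock markers were chosen with earlier results of these data known. Genes named were the members, *Fos*, 3 pathway genes per organ and direction, by smallest p, the companions *Nr3c1*, *Hsd11b1*, *H6pd*, *Per1*, *Tsc22d3* and *Fkbp5*, and the 2 genes most like each member. A gene of the pathway lists is not reported here and was left out of their counts. *Ren2*, *Agtr2*, the kidney markers *Akr1b7*, *Gja5* and *Kap*, and the single adrenal, fat and liver markers do not follow this rule. They were chosen once their values were known. Kidney and liver libraries of the same number and treatment deviated together in NT (correlations of deviations 0.112 to 0.322) but less so in shFos (0.0399 to 0.147), and no source pairs them. No pair of libraries of a group was similar enough to be 1 library listed again (smallest chi-square per degree of freedom 7.17).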

Additional observations from a re-analysis of the deposited data

Results flagged for a closer look

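Of 22 sets of 4 libraries (a member in an organ and treatment, with more than 12 counts in some library), 3 had 1 library set apart from the rest by Dixon's criterion, which compares the gap to the nearest library with the whole range and exceeds its 95% critical value by chance in about 1 of 20 such sets. *Ace* in the liver of NT replicate 4 was 8.79 CPM, with the gap covering 0.860 of the range. *Hsd11b2* in the kidney of NT replicate 1 was 217 CPM, with a share of 0.890. *Nr3c2* in the kidney of shFos replicate 4 was 24.2 CPM, with a share of 0.848.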

How the results depend on the processing

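No alternative changed the direction of a member in kidney, in the interaction or between organs. The kidney count of genes with an adjusted p under 0.05, which was 0, became 2732 with DESeq2, 3 with no filter on low counts and 994 in one fit of all 16 libraries, and ranged from 0 to 4126 when 1 library was left out, the highest being without shFos replicate 1. The members called in kidney became 1 with DESeq2 and ranged from 0 to 2. The liver count of 0 became 38 with DESeq2, and the liver count of genes with an unadjusted p under 0.05, which was 886, became 1594 in one fit of all libraries and ranged from 538, without shFos replicate 1, to 1224. The interaction count of 0 became 341 with DESeq2, with 1 member, and ranged from 0 to 1246, the highest again without kidney shFos replicate 1. Between organs in NT mice, 5 to 6 members were called. The kidney estimate of *H6pd*, 0.04, was −0.018 with upper-quartile normalization and −0.064 to 0.24 with 1 library left out. *Per1* in kidney ranged from −0.63 to 0.08 and *Fkbp5* from −1.09 to 0.61, and with NT replicate 4 and shFos replicate 2 both left out they were 0.10 and 0.67. In liver, leaving out 1 library gave −1.09 to 0.14 for *Ace*, −0.14 to 0.058 for *Agtr1a*, −0.18 to 0.29 for *Hsd11b1* and −0.032 to 0.53 for *Per1*. The cause was not tested.

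NT and shFos libraries share only a replicate number, since correlations of their deviations were −0.170 to 0.119 in kidney and −0.261 to 0.0403 in liver. With the replicate block, kidney had 0 genes with an adjusted p under 0.05 and 3789 with an unadjusted p under 0.05, and the block changed no member's call in any comparison. Depth limits *Mas1*, *Agtr1b* and, in liver, *Hsd11b2*, whose counts are too few for a test.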
